A study of Homo sapiens with 6 samples.

Results

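The genes described here are the main families of general and regulatory splicing factors: the SR proteins (SRSF), the heterogeneous nuclear ribonucleoproteins (HNRNP), the SF3A and SF3B subunits of the U2 small nuclear ribonucleoprotein, and the U2AF proteins. They were chosen by gene symbol alone, as every row whose symbol starts with HNRNP and a letter, or is SRSF, SF3A, SF3B or U2AF followed by a number, and holds no hyphen. The rule gave 49 of the 19785 genes in the expression table: 12 SRSF, 24 HNRNP, 3 SF3A, 6 SF3B and 4 U2AF genes. Of these, 45 had a mean of at least 1 over the libraries and were tested. The other 4, SRSF12, HNRNPCL1, HNRNPCL2 and HNRNPCL4, lay between 0 and 0.102 in every library.

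RNA was compared between SET-2 OTX P/R cells (3 libraries) and parental SET-2 cells (3 libraries). SET-2 is a human leukaemia cell line, which the labels give as leukaemic blasts of secondary acute myeloid leukaemia. The OTX P/R line derives from it, and the name is read here, from the study's title on resistance to BET inhibitors, as resistance to birabresib, a drug that blocks the bromodomains of the BET proteins. All libraries came from total RNA of exponentially growing cultures in RPMI medium with 20% serum, labelled as untreated in both groups. The labels describe 1 derived line, so drug resistance and any other difference between these lines cannot be told apart. The labels call the 3 libraries of each group biologic replicates but do not say whether they came from separate cultures. The p-values thus measure the spread between these samples, which may be technical in part.

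Pre-mRNA splicing begins when U1 marks the start of an intron and the U2AF heterodimer marks its end: U2AF2 binds the polypyrimidine tract and U2AF1 reads the AG dinucleotide beside it. SF3A and SF3B then hold U2 on the branch point. SR proteins bind exons and mostly favour their inclusion, while many hnRNPs bind silencers and favour skipping, so the balance between them helps to set which exons are kept. Several of these genes (SF3B1, U2AF1 and SRSF2) are recurrently mutated in myeloid leukaemia, and JMJD6, the enzyme in the study's title, hydroxylates lysines of U2AF2.

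Each value is a gene abundance on a linear scale from a quantile-normalized table, in which equally ranked values (of 1 or more) lay within 0.243% of each other in all libraries. A value thus gives the rank of the gene within its library, library totals (419375 to 419437) carry no depth, and sequencing depth is unknown. Libraries of a group correlated at 0.986 to 0.988 on the log2 scale across genes, and libraries of different groups at 0.948 to 0.949. Fold changes below are differences of log2(value + 1), OTX P/R over parental, and a gene was called at a Benjamini-Hochberg adjusted p under 0.05 in limma over all 10741 genes tested. The median log2 fold change of all genes was 0.016. Of 18 megakaryocyte and erythroid markers, 14 had a mean of at least 1, PF4 was at 0 in every library, 7 rose and 3 fell, and the summed level of the 18 was 6519 to 7124 in OTX P/R libraries and 13876 to 14880.1 in parental libraries. The log2 fold changes of those 14 ran from -2.53 to 2.32 with a median of 0.25, and 8 lay above 0. The lower sum thus does not describe the markers as a whole. Of 10 T and NK markers, CD3D, GZMB, NKG7 and PRF1 had a mean of at least 1, the summed level was 51.4 to 54.9 in OTX P/R libraries and 116 to 124 in parental libraries, and all 4 fell. The 7 B and plasma markers (JCHAIN and MS4A1 at 0, 2 called lower) summed to 9.996 to 10.9 in OTX P/R libraries and 13.8 to 16.1 in parental libraries, the 10 monocyte and granulocyte markers (S100A8 at 0, 1 called lower) to 84.5 to 106 in OTX P/R libraries and 95.04 to 109 in parental libraries, and the 12 epithelial, stromal and endothelial markers (2 called higher) to 30.9 to 34.5 in OTX P/R libraries and 17.2 to 20.5 in parental libraries. The part of these markers in the results below was not tested, and in bulk RNA fewer cells of a type and less RNA per cell cannot be told apart.

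Differences between the lines were small for most splicing factors and went in both directions. Of the 45 tested, 11 were called (24.4%), where 36.1% of all genes tested were called. They were 7 higher (SRSF4, SRSF8, SRSF9, HNRNPA2B1, HNRNPH1, HNRNPUL1 and HNRNPF) and 4 lower (SF3B3, HNRNPA0, HNRNPH2 and HNRNPAB) in OTX P/R cells, where 18.6% and 17.5% of all genes were called in those directions. Without parental replicate 1 the number called lower was 7. Each library was left out in turn, and a pass reached only that way is not counted as a call below. The libraries named for such passes were singled out after the values were seen. Dropping a library that lies near the other group widens the difference. Only SF3B3 combined a call with a fold of at least 1.5 (2.22% of the members, against 14.6% of all genes). The log2 fold changes ran from -0.67 to 0.52 with a median of 0.062, and the median size was 0.18, against 0.21 over all genes tested. In 22 members the OTX P/R and parental libraries did not overlap (48.9%), 16 with the OTX P/R libraries above and 6 with them below, where 51.6% of all genes did not overlap. A rule that needs complete separation of 3 against 3 libraries cannot give a two-sided exact permutation p below 0.1, so the calls rest on the limma fit across genes.

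**Figure D1:**
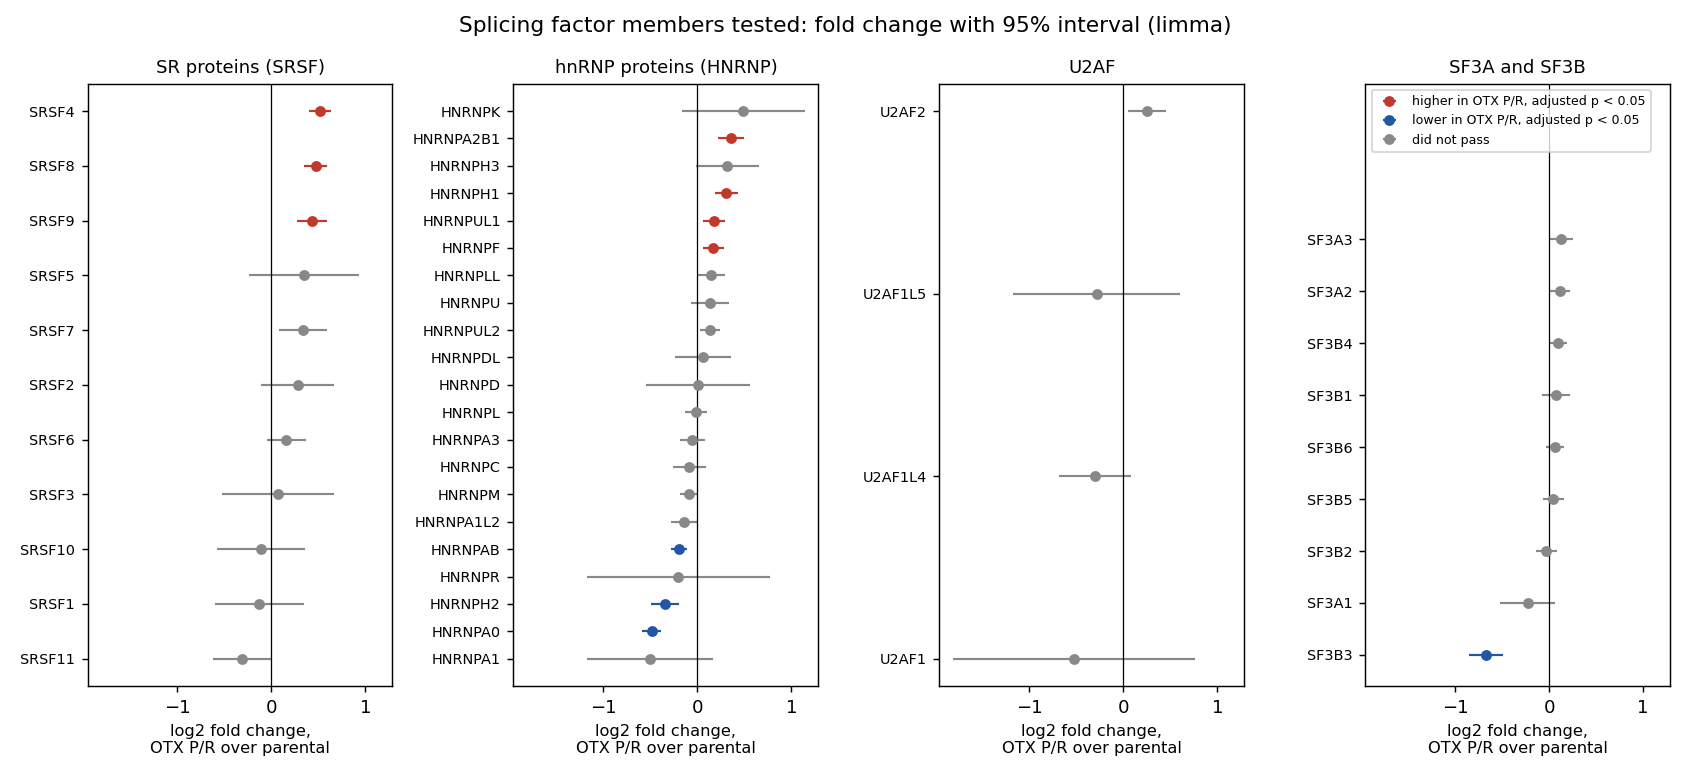
Log2 fold change of each tested member, OTX P/R over parental, on the log2(value + 1) scale, by family, with 95% intervals from limma; colours mark calls at an adjusted p under 0.05. SRSF4, at 0.52, and SF3B3, at -0.67, are the called members at the 2 ends, and U2AF1, HNRNPR and U2AF1L5 have the widest intervals of the members.

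Among the SR proteins, 3 of 11 rose, none fell, and 8 of 11 had a log2 fold change above 0 (72.7%), with a family median of 0.28. The 3 calls are 27.3% of the family, below the 36.1% called among all genes, of which 52.1% lay above 0 with a median of 0.016. SRSF4, an SR protein with a long arginine-serine tail, was 66.6, 72.2 and 67.7 in OTX P/R replicates 1, 2 and 3, against 46.8, 48.2 and 48.5 in parental replicates 1, 2 and 3. Every OTX P/R library lay above every parental one, and the means were 68.9 ± 2.95 in OTX P/R libraries and 47.8 ± 0.935 in parental libraries (SD, n = 3 each). The log2 fold change was 0.52 (SE 0.048, limma adjusted p = 5.38e-04). SRSF8, which arose as an intronless copy of SRSF2, was 24.4, 23.5 and 24.7 in OTX P/R libraries, against 16.5, 17.5 and 17.5 in parental libraries, again without overlap, a log2 fold change of 0.47 (SE 0.050, limma adjusted p = 8.88e-04). SRSF9, a close relative of SRSF1 (69.2% coding identity), was 202, 172 and 189 in OTX P/R libraries, against 137, 141 and 136 in parental libraries, a log2 fold change of 0.43 (SE 0.065, limma adjusted p = 0.00366). These 3 calls held under all 15 other settings tried, each left-out library included.

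Among the other SR proteins none passed. SRSF2, which binds exonic enhancers and shares 84.7% of 654 aligned coding bases with SRSF8, was 188, 179.7 and 139 in OTX P/R libraries, against 117, 162 and 136 in parental libraries, and these overlapped (log2 fold change 0.28, 95% interval -0.11 to 0.67, limma adjusted p = 0.221; 0.17 without parental replicate 1). SRSF1, the founding SR protein, was 199, 128 and 211 in OTX P/R libraries, against 202, 175 and 199.5 in parental libraries, with OTX P/R replicate 2 the lowest of all. Its log2 fold change was -0.13 (95% interval -0.60 to 0.34), and it was 0.095 without OTX P/R replicate 2. SRSF7, an SR protein with a zinc knuckle that also takes part in mRNA export, was 84.7, 65.8 and 84.4 in OTX P/R libraries, against 60.2, 60.9 and 63.6 in parental libraries. The groups did not overlap, but replicate 2 stood apart from the other OTX P/R libraries, and the adjusted p in limma was 0.0526. Without that library the log2 fold change was 0.45, against 0.33 with it, and it passed (limma adjusted p = 0.00360). SRSF11, which binds U2AF2, was at 36.0, 43.6 and 35.1 in OTX P/R libraries, against 40.4, 51.9 and 50.8 in parental libraries (log2 fold change -0.31, limma adjusted p = 0.105), and it passed as lower without parental replicate 1 (limma adjusted p = 0.0374). Of the remaining SR proteins, SRSF3 had a log2 fold change of 0.073, SRSF5 of 0.35, SRSF6 of 0.16 and SRSF10, a splicing repressor when dephosphorylated, of -0.11. These values rest on single libraries: SRSF5 was at 0.081 without parental replicate 3 and 0.56 without parental replicate 2, SRSF6 at 0.078 without OTX P/R replicate 1, SRSF3 at -0.13 and SRSF10 at 0.077 without parental replicate 2. Summed over the family, SR protein abundance was 991, 914 and 985 in OTX P/R libraries, against 834, 839 and 859 in parental libraries, without overlap. This sum was chosen after its members' values were seen and was not tested.

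Of the 21 tested hnRNP genes 4 rose and 3 fell (33.3%, against 36.1% of all genes), and the family median was 0.0044. The A/B subfamily moved in both directions. HNRNPA2B1, which binds exonic silencers and RNA trafficking signals, had the highest abundance of all members. It was 745, 745 and 778 in OTX P/R libraries, against 569.6, 569.7 and 632 in parental libraries, and no library of one group reached the other. Its log2 fold change was 0.36 (SE 0.055, limma adjusted p = 0.00396), and its rank among all genes was 71 in OTX P/R replicate 1 and 92 in parental replicate 1. HNRNPA0, an intronless gene whose protein stabilises AU-rich mRNAs, was 20.0, 19.9 and 20.0 in OTX P/R libraries, against 28.6, 28.1 and 28.1 in parental libraries, a log2 fold change of -0.48 (SE 0.041, limma adjusted p = 3.60e-04). Replicates of this gene lay within 1.02-fold of each other in both groups. HNRNPAB, which binds single-stranded RNA and DNA, was 187, 183 and 183 in OTX P/R libraries, against 209.8, 211 and 214 in parental libraries, a log2 fold change of -0.20 (SE 0.036, limma adjusted p = 0.00779). Neither labels nor notes state whether counting was stranded, and of the called members HNRNPAB overlaps PHYKPL, HNRNPA2B1 overlaps NFE2L3 and CBX3, SRSF9 overlaps GATC and HNRNPUL1 overlaps TGFB1 on the opposite strand. Reads of these partners cannot be told apart without strand, which also holds for HNRNPH3, HNRNPU, SF3A1, SF3A2, SRSF2 and U2AF1L4, members that were not called.

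HNRNPA1, the best-known exon silencer of the family, did not pass, and its parental libraries were far apart. It was 149, 167 and 170.2 in OTX P/R libraries, against 270.4, 307 and 146 in parental libraries, so that parental replicate 3 lay below all OTX P/R libraries while the other parental libraries lay above them. The log2 fold change was -0.50 (95% interval -1.17 to 0.17, limma adjusted p = 0.209), and without parental replicate 3 it was -0.83 (limma adjusted p = 0.00307). Its near-copy HNRNPA1L2, which differs at 15 of 960 coding bases (98.4% identity), was 21.4, 21.4 and 21.7 in OTX P/R libraries, against 22.2, 24.9 and 24.3 in parental libraries. The groups did not overlap there, and the call was missed (log2 fold change -0.14, limma adjusted p = 0.104), but it passed as lower without parental replicate 1 (log2 fold change -0.19, limma adjusted p = 0.0356). Reads of this pair can be shared between the genes, so their separate levels are uncertain. HNRNPA3 had a log2 fold change of -0.052 (limma adjusted p = 0.508).

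The F/H subfamily binds runs of guanines beside exons, and its 2 closest paralogs moved in opposite directions. HNRNPH1 on chromosome 5 and HNRNPH2 on the X chromosome differ at 172 of 1343 aligned coding bases (87.2% identity). The first 120 coding bases of each are shown because these differences are what lets reads be told apart between the pair. They are from GENCODE v29 on GRCh38, 5′ to 3′, and capitals mark the 23 positions at which the pair differs.

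HNRNPH1: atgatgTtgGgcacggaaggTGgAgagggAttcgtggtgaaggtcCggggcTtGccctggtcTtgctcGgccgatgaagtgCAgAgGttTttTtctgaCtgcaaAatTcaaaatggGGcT

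HNRNPH2: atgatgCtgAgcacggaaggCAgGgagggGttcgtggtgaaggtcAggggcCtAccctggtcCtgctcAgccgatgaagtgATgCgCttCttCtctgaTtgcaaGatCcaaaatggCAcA

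HNRNPH1 was 125, 129.9 and 124 in OTX P/R libraries, against 97.3, 100.5 and 107 in parental libraries, a log2 fold change of 0.31 (SE 0.051, limma adjusted p = 0.00542). HNRNPH2 was 39.1, 39.0 and 40.5 in OTX P/R libraries, against 51.7, 46.7 and 53.2 in parental libraries, a log2 fold change of -0.34 (SE 0.061, limma adjusted p = 0.00680). Neither gene's groups overlapped. The ratio of HNRNPH1 to HNRNPH2 abundance was 3.19, 3.33 and 3.06 in OTX P/R libraries, against 1.88, 2.15 and 2.02 in parental libraries, so every OTX P/R library had the larger share of HNRNPH1. The pair was picked for its opposite calls, so the ratio is a description with no test. HNRNPH2 also overlaps the readthrough gene RPL36A-HNRNPH2 on the same strand. HNRNPF, which binds the same guanine runs, was 196, 205 and 206 in OTX P/R libraries, against 186, 173 and 182 in parental libraries, a log2 fold change of 0.17 (SE 0.046, limma adjusted p = 0.0330). That call was lost without each of OTX P/R replicates 1, 2 and 3 and parental replicates 2 and 3 in turn (limma adjusted p 0.0505 to 0.0996). HNRNPH3 was 83.1, 92.8 and 91.7 in OTX P/R libraries, against 59.7, 69.4 and 87.2 in parental libraries, with parental replicate 3 close to the OTX P/R values. It did not pass (log2 fold change 0.32, limma adjusted p = 0.125) but passed without that library (log2 fold change 0.46, limma adjusted p = 0.0193).

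In the U subfamily, large nuclear proteins that bind RNA and chromatin, all 3 genes had higher means in OTX P/R cells and 1 was called. HNRNPUL1 was 223, 237 and 243 in OTX P/R libraries, against 213, 201 and 207 in parental libraries, a log2 fold change of 0.18 (SE 0.049, limma adjusted p = 0.0350). The call was lost without OTX P/R replicate 2 or 3 and without parental replicate 2 or 3 (limma adjusted p 0.0804 to 0.103). HNRNPUL2 was 73.8, 72.8 and 72.6 in OTX P/R libraries, against 69.5, 65.5 and 65.2 in parental libraries; the groups did not overlap, the limma adjusted p was 0.0629, and it was 0.0386 without parental replicate 1. HNRNPU had a log2 fold change of 0.14 (limma adjusted p = 0.248), and 0.051 without parental replicate 2.

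The remaining hnRNPs did not pass. HNRNPK, which binds cytosine-rich RNA, was 199, 217 and 224 in OTX P/R libraries, against 189, 96.8 and 191 in parental libraries, and parental replicate 2 alone stood low. Its log2 fold change was 0.49 with a 95% interval of -0.16 to 1.14, and it was 0.17 without parental replicate 2 (limma adjusted p = 0.110). HNRNPR was 46.4, 131 and 126 in OTX P/R libraries, against 114, 97.1 and 107 in parental libraries, and here OTX P/R replicate 1 alone stood low, so that the log2 fold change was -0.21 with it and 0.28 without it (limma adjusted p = 0.0589). HNRNPC, which binds uridine tracts, HNRNPL, which binds CA repeats, and HNRNPM had log2 fold changes of -0.086, -0.017 and -0.093. HNRNPLL, known for the splicing of CD45 in lymphocytes, was at 0.14. HNRNPD, which speeds the decay of AU-rich mRNAs, and its relative HNRNPDL were at 0.0044 and 0.061. Summed over all 24 genes of the family, hnRNP abundance was 3386, 3422 and 3559 in OTX P/R libraries, against 3251, 3294 and 3292 in parental libraries. This sum is a description chosen after the values were seen. HNRNPA2B1 alone averaged 756 in OTX P/R libraries and 590 in parental libraries, while the family median log2 fold change was 0.0044.

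**Figure D2:**
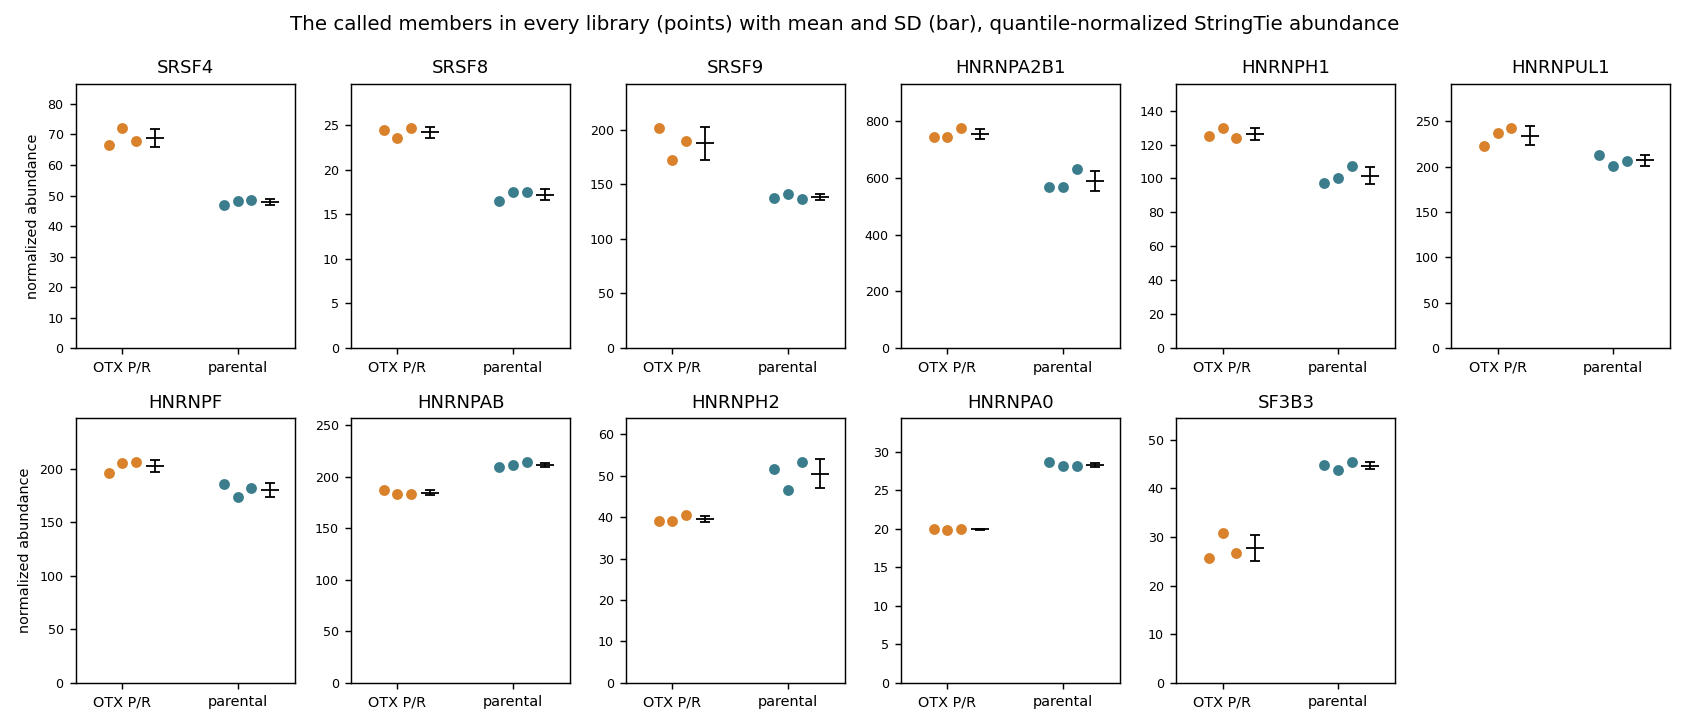
Abundance of the 11 called members in each library, OTX P/R left and parental right; each point is 1 library, and bars give the mean and SD of 3 libraries. In all 11 the points of the 2 groups are separate, from HNRNPA2B1 (745 or more in OTX P/R libraries) to HNRNPA0 (20.0 or less in OTX P/R libraries).

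Of the 4 U2AF genes none was called. U2AF2, the larger subunit and the known substrate of JMJD6, was 106, 109.9 and 112 in OTX P/R libraries, against 87.6, 104 and 84.8 in parental libraries. Every OTX P/R library lay above every parental one, but parental replicate 2 came close. The log2 fold change was 0.25 (SE 0.083, 95% interval 0.047 to 0.45, limma adjusted p = 0.0610). Over the left-out libraries it ran from 0.19 to 0.34. It passed only without parental replicate 2, the parental library closest to the OTX P/R values (limma adjusted p = 0.00657). JMJD6 itself was 17.2, 18.5 and 20.9 in OTX P/R libraries, against 17.5, 17.7 and 15.3 in parental libraries, and the groups overlapped (log2 fold change 0.15, 95% interval -0.070 to 0.37, limma adjusted p = 0.246; 0.080 without OTX P/R replicate 3). The table measures RNA abundance, so the hydroxylation of U2AF2 was not measured.

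The small subunit is listed under more than one gene identifier. U2AF1 (ENSG00000160201.11) and U2AF1L5 (ENSG00000275895.4) both lie on chromosome 21 in GENCODE v29, and their annotated coding sequences of 720 bases did not differ at any base. U2AF1L4, on chromosome 19, differs from U2AF1 at 181 of 660 aligned bases (72.6% identity). The first 90 coding bases on GRCh38 are shown to set the identical pair beside the diverged paralog, 5′ to 3′, with capitals at the 25 positions where U2AF1L4 differs from U2AF1.

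U2AF1: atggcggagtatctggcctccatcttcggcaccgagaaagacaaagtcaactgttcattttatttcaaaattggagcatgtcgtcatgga

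U2AF1L5: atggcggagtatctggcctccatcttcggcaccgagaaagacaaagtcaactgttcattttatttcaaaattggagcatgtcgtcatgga

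U2AF1L4: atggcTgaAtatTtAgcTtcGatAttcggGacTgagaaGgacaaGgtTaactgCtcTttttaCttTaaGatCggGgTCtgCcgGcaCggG

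With no coding base to tell U2AF1 from U2AF1L5, reads can be shared between these entries. Their separate values, fold changes and passes are therefore uncertain. Whether U2AF1L5 is a gene apart from U2AF1 was not tested. U2AF1 was 63.6, 60.9 and 61.6 in OTX P/R libraries, against 55.6, 58.5 and 221 in parental libraries. U2AF1L5 was 131, 132 and 131 in OTX P/R libraries, against 115, 119 and 297 in parental libraries. Parental replicate 3 stood far above the other 5 libraries in both genes, and their summed abundance was 195, 193 and 192 in OTX P/R libraries, against 171, 178 and 518 in parental libraries. With all libraries the log2 fold changes were -0.53 for U2AF1 (95% interval -1.81 to 0.76) and -0.28 for U2AF1L5 (95% interval -1.17 to 0.61), and neither passed. Without parental replicate 3 both turned round, to 0.12 for U2AF1 (limma adjusted p = 0.148) and 0.16 for U2AF1L5 (limma adjusted p = 0.0431), so the direction of these genes rests on that library. U2AF1L4, a shorter paralog of U2AF1, was 6.80, 6.24 and 6.28 in OTX P/R libraries, against 6.15, 8.96 and 9.82 in parental libraries. Its log2 fold change was -0.30 (limma adjusted p = 0.191), and without parental replicate 1, its lowest parental library, it was -0.48 (limma adjusted p = 0.00864).

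**Figure D3:**
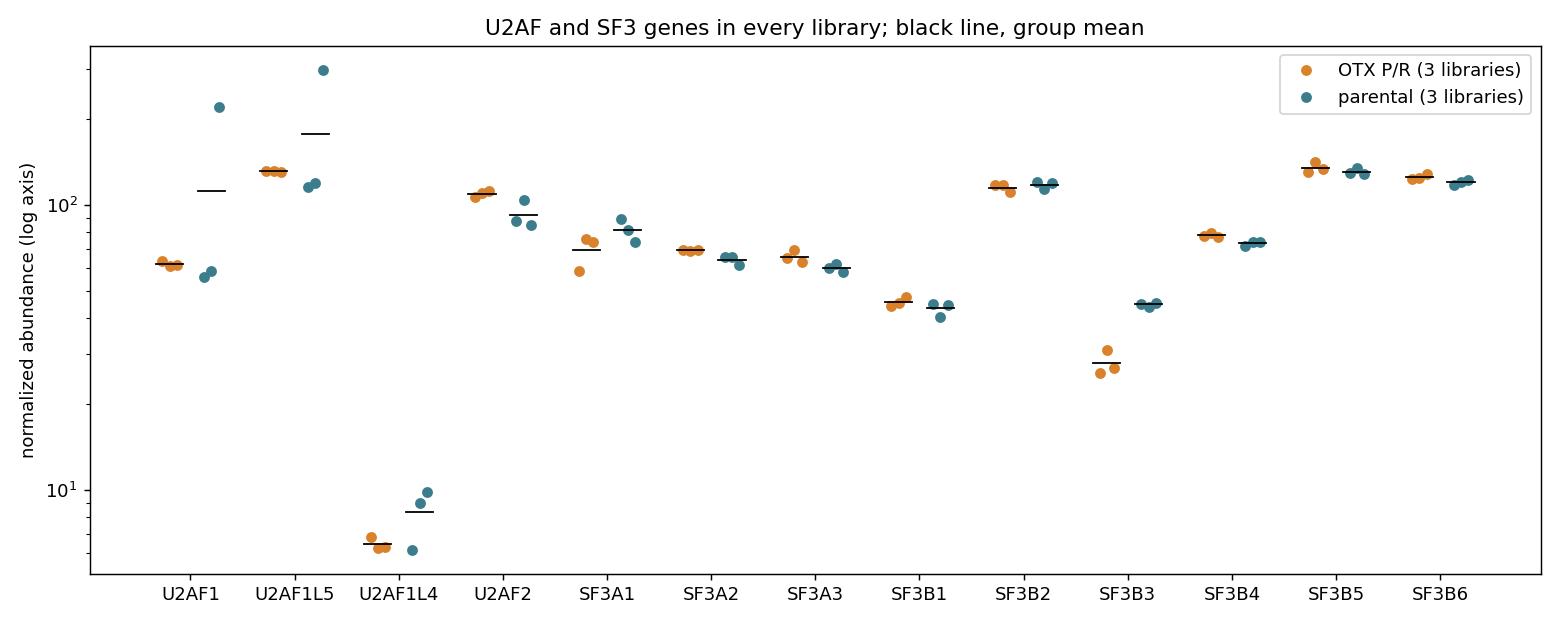
Abundance of the U2AF and SF3 genes in each library, OTX P/R left and parental right, on a log axis; each point is 1 library, and black lines give the mean of 3 libraries. SF3B3 separates the groups, and U2AF1 and U2AF1L5 have 1 parental library, at 221 and 297, above all others.

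Of the 9 SF3 subunits 1 fell and none rose, where 36.1% of all genes tested were called. SF3B3 (ENSG00000189091.12 on chromosome 16), a large scaffold of the SF3B complex, was 25.7, 30.8 and 26.8 in OTX P/R libraries, against 44.9, 43.8 and 45.3 in parental libraries. All OTX P/R libraries lay below all parental ones, with means of 27.8 ± 2.67 in OTX P/R libraries and 44.7 ± 0.768 in parental libraries (SD, n = 3 each). The log2 fold change was -0.67 (SE 0.074, 95% interval -0.85 to -0.49, limma adjusted p = 1.00e-03), and it stayed called under every setting tried. SF3B1, the subunit that clamps the branch point, was 44.1, 45.1 and 47.6 in OTX P/R libraries, against 44.9, 40.5 and 44.5 in parental libraries, with overlap (log2 fold change 0.073, limma adjusted p = 0.390). SF3B1 stood at 1.71, 1.46 and 1.78 times SF3B3 in OTX P/R libraries, against 1.00, 0.924 and 0.982 times in parental libraries, a ratio chosen after the call and not tested. SF3B2, which binds SF3B4, had a log2 fold change of -0.033, SF3B4, which contacts the pre-mRNA upstream of the branch point, of 0.090, SF3B5 of 0.045, and SF3B6, which lies near the branch adenosine, of 0.062. The 95% intervals of these 4 together span -0.15 to 0.19. PHF5A, the remaining core subunit of the complex, which the symbol rule does not take in, had a log2 fold change of 0.12 (limma adjusted p = 0.270).

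In the SF3A complex, which joins SF3B on U2, SF3A2 was 69.5, 68.8 and 69.3 in OTX P/R libraries, against 65.5, 65.3 and 61.5 in parental libraries. SF3A3 was 64.9, 69.2 and 63.1 in OTX P/R libraries, against 59.9, 62.2 and 58.2 in parental libraries. Both separated the groups upwards by a small margin without passing, at log2 fold changes of 0.11 and 0.13 (limma adjusted p = 0.0992 and 0.113). SF3A1 was 58.6, 75.5 and 74.1 in OTX P/R libraries, against 88.9, 81.4 and 73.7 in parental libraries, and these overlapped (log2 fold change -0.23, limma adjusted p = 0.183; -0.11 without OTX P/R replicate 1). The summed abundance of all SF3 genes was 711, 751 and 732 in OTX P/R libraries, against 742, 736 and 728 in parental libraries.

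Some splicing factors varied between libraries of the same line. A highest value at least 1.5 times the lowest within a group was found for 11 of the 45 members (24.4%), against 2361 of the 10741 genes tested (22.0%). Among genes with a mean of at least 20 it was 9 of 42 members (21.4%), against 424 of 3380 genes (12.5%), shares that are a description without a test. The widest were U2AF1, with a 3.97-fold span among parental libraries, HNRNPR, with a 2.83-fold span among OTX P/R libraries, U2AF1L5, with 2.58-fold, and HNRNPA1, with 2.11-fold, both among parental libraries. None of the 11 called members was among these 11, but a call itself needs a small spread within groups, so this adds nothing to the calls. The libraries that stood apart differed from gene to gene: OTX P/R replicate 1 for HNRNPR and SRSF3, OTX P/R replicate 2 for SRSF1, parental replicate 2 for HNRNPK and SRSF3, and parental replicate 3 for U2AF1, U2AF1L5 and HNRNPA1. In GENCODE v29, 37 of 45 members (82.2%) have a transcript annotated as a target of nonsense-mediated decay or as retaining an intron, against 7301 of 10741 genes (68.0%), and among the 11 called members it was 8 (72.7%). How abundance was shared between such transcripts was not tested, since the table holds 1 value per gene.

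**Figure D4:**
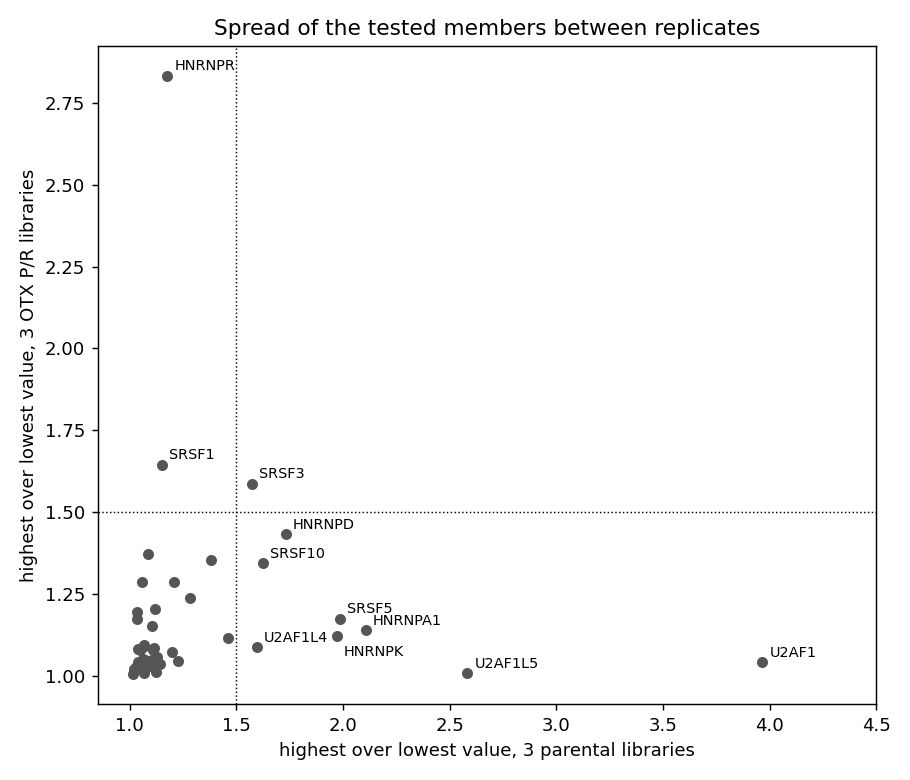
Highest over lowest value among the 3 OTX P/R libraries (vertical axis) and among the 3 parental libraries (horizontal axis) for each tested member; dotted lines mark 1.5-fold. Most members sit in the lower left corner, HNRNPR lies high at 2.83 and U2AF1 far right at 3.97.

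Each member was set beside its neighbours on the chromosome. HNRNPA0, HNRNPAB and HNRNPH1, 3 of the 11 called members, lie on chromosome 5. The 24 nearest tested genes of HNRNPA0, 12 on each side, had a median log2 fold change of -0.69, those of HNRNPAB -0.34 and those of HNRNPH1 -0.51. HNRNPA0 and HNRNPAB thus had lower abundance together with their neighbourhoods, while HNRNPH1, at 0.31, went against neighbours that were lower. HNRNPM, on chromosome 19, was at -0.093 where its neighbours had a median of -0.51. Around the other called members the neighbour medians lay close to 0: 0.093 for SF3B3, -0.011 for SRSF4, -0.027 for SRSF8, 0.045 for SRSF9, 0.059 for HNRNPA2B1 and -0.045 for HNRNPH2. Whether the lines differ in DNA copy number at these places was not tested.

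**Figure D5:**
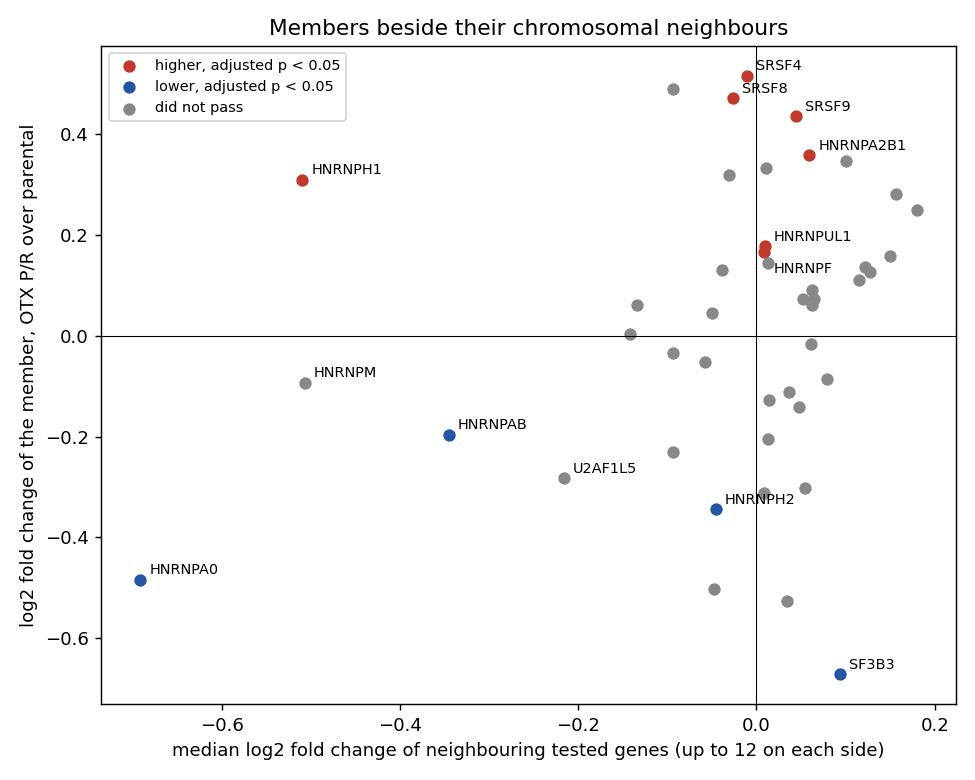
Log2 fold change of each tested member (vertical) against the median log2 fold change of up to 12 tested genes on each side of it (horizontal), both OTX P/R over parental. HNRNPA0 and HNRNPAB lie at lower left with their neighbours, HNRNPH1 at upper left, and SF3B3 at the bottom with a neighbour median of 0.093.

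Promoters were searched for the E-box of MYC, the oncogene in the study's title, as CACGTG, and for the ETS motif CCGGAAG, on both strands from 250 bases before to 50 after the start in RefSeq on GRCh38.p14. SF3B3, HNRNPA1, SRSF2 and U2AF1L5 had no entry, so the 45 members searched are not the 45 tested. CACGTG was found in 8 of 45 members with an entry (17.8%), against 2396 of 27305 genes with a promoter (8.77%). Only 10741 genes were tested here, so the 27305 include genes with little or no RNA in these cells, and the shares are not of matched genes. It was present in 1 of 7 members called higher (HNRNPUL1), 1 of 3 called lower (HNRNPH2), 6 of 31 not called and 0 of 4 not tested (the 6 being HNRNPA3, HNRNPD, HNRNPDL, HNRNPH3, HNRNPM and SF3B1). CCGGAAG was found in 12 of 45 (26.7%), against 3321 of the same 27305 genes (12.2%). It was present in 2 of 7 called higher (HNRNPF and SRSF4), 0 of 3 called lower, 10 of 31 not called and 0 of 4 not tested. The motifs do not overlap in sequence, and a match is a description of letters, not a site in use. Windows of 60 bases are shown for the called SRSF4 (chr1:29182091-29182150, minus strand, the motif as its reverse complement CTTCCGG starting 241 bases before the start) and HNRNPH2 (chrX:101408153-101408212, plus strand, the motif starting 42 bases before the start), 5′ to 3′ on the gene's strand with the motif in capitals.

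SRSF4 promoter: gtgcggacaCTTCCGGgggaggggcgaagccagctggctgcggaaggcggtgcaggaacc

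HNRNPH2 promoter: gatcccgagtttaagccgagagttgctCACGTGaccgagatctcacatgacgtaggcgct

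The other splicing genes were taken from 8 lists. Of 17 U1 and core Sm proteins 4 rose and none fell (18.6% and 17.5% of all genes), among them SNRPA and SNRNP70, both U1 proteins, at log2 fold changes of 0.32 and 0.21, and SNRPG, a ring subunit shared by the spliceosomal particles, at 0.26 (limma adjusted p = 0.0341, 0.00688 and 0.0420). The number called was 2 without OTX P/R replicate 1 or parental replicate 1 and 1 without OTX P/R replicate 3, and the calls of SNRPA and SNRPG were among those lost when a library was left out. Of 22 tested factors that act with U2 or at the 3′ splice site outside SF3 and U2AF, 3 rose and 3 fell. The share called was 27.3%, against 36.1% of all genes. SF1, which holds the branch point before U2 arrives, rose by 0.25 on the log2 scale, RBM5 by 0.24 and CHERP by 0.22, while DDX46, the helicase that readies U2, had -0.48 and SNRPB2, a U2 protein, -0.30. The neighbours of DDX46 had a median of -0.75. The 6 calls became 2 without OTX P/R replicate 2 or 3 and 3 without parental replicate 2 or 3, and of the genes named here DDX46 and SNRPB2 were called with each library left out. JMJD6 and the arginine methyltransferases gave 2 higher and 3 lower of 12 tested (41.7%, against 36.1% of all genes). PRMT6 and PRMT1 were higher at 0.28 and 0.18, and CARM1, PRMT7 and PRMT3 lower at -0.49, -0.38 and -0.22, while without OTX P/R replicate 1 or 2 or parental replicate 3 the calls numbered 3 (PRMT1 and PRMT3 lost theirs without at least 1 library).

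Larger changes than in any member were seen in the catalytic spliceosome, where 7 of 51 tested genes rose and 10 fell. The share called was 33.3%, against 36.1% of all genes tested. EFTUD2, the GTPase beside PRPF8, averaged 33.7 ± 1.66 in OTX P/R libraries and 64.2 ± 4.33 in parental libraries, a log2 fold change of -0.91 (SD, n = 3 each, limma adjusted p = 2.03e-04), with neighbours at -0.68. CWC25 and SLU7, which act at the catalytic steps, were at -0.81 and -0.81, beside neighbour medians of -0.77 and -0.72. ISY1 averaged 32.7 ± 0.655 in OTX P/R libraries and 18.2 ± 0.728 in parental libraries, a log2 fold change of 0.81 (limma adjusted p = 1.02e-04). LSM8, of the U6 ring, and TXNL4A were higher at 0.78 and 0.58, calls that were lost without at least 1 library. The neighbours of LSM8, on chromosome 7, had a median of 0.56, those of TXNL4A -0.060 and those of ISY1 0.0042.

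Of 29 tested kinases, phosphatases and partners of SR proteins, 8 rose and 1 fell, and 25 (86.2%) had a log2 fold change above 0. Of all genes tested 18.6% rose, 17.5% fell and 52.1% lay above 0. SRPK2, a kinase that phosphorylates SR proteins, was 12.4, 14.7 and 11.1 in OTX P/R libraries, against 5.42, 4.33 and 6.20 in parental libraries, without overlap, a log2 fold change of 1.12 (limma adjusted p = 0.00187). TNPO3, which carries phosphorylated SR proteins into the nucleus, was 27.4, 27.6 and 27.6 in OTX P/R libraries, against 17.1, 16.0 and 16.5 in parental libraries, at 0.70, and HIPK2 was at 1.32. All 3 lie on chromosome 7, where their neighbours had medians of 0.74, 0.69 and 0.69. CLK4, another SR protein kinase, was the one that fell, at -0.77 (limma adjusted p = 0.0124). It lies on chromosome 5, where its neighbours had a median of -0.36. Its values were close to the filter, at 1.13, 1.38 and 0.639 in OTX P/R libraries, against 2.88, 2.34 and 2.16 in parental libraries.

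Of 44 other RNA-binding regulators tested 6 rose and 4 fell (22.7%, against 36.1% of all genes). Among them were RBM38 at 0.84, NONO (call lost without at least 1 library) at 0.52, TAF15 at -0.66 and the cold-induced RBM3 at -0.55. The neuronal ELAVL4 had the largest fall of the lists, at -4.05. Of 17 nonsense-mediated decay and exon junction genes 5 rose and 3 fell (47.1%, against 36.1% of all genes). CASC3, of the exon junction core, was lower at -1.01 beside neighbours at -0.72, UPF3B and UPF2 were lower at -0.35 and -0.28, and SMG6, the endonuclease of the pathway, PNRC2 and SMG9 were higher at 0.32, 0.30 and 0.29. The 8 calls became 5 without OTX P/R replicate 3 or parental replicate 2, and UPF3B, SMG6 and PNRC2 lost theirs without at least 1 library. Of 11 minor spliceosome genes 2 rose (ARMC7 at 0.62, PDCD7 at 0.15) and 2 fell (CCDC84 at -0.57, SNRNP48 at -0.24). The share called was 36.4%, against 36.1% of all genes. These 4 calls became 2 without any OTX P/R replicate or without parental replicate 1 or 3, with PDCD7 and SNRNP48 among the losses. List medians lay between -0.04 and 0.17, and the counts are read only beside the shares of all genes called.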

How the data were processed

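The authors' deposited values are a signal, a gene abundance per library on a linear scale. Per the submitters' processing notes, Trim Galore, HISAT2 and StringTie were used with the human build hg19; no source used here states versions or whether the values are FPKM or TPM. Equally ranked values of 1 or more lay within 0.243% of each other in all libraries, so the table is quantile-normalized: a value carries rank, not depth or total RNA, no counting interval can be given, and a change in abundant genes can move the ranks of others. Without counts, precision rests on 3 libraries per group.

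Groups came from the sample titles. Of 19785 rows, 6 with a missing value were left out. Genes averaging 1 or more over the libraries (10741) were fitted together in limma 3.58.1 (R 4.3.3) on log2(value + 1), OTX P/R minus parental, with a variance trend, without a block, two-sided, with Benjamini-Hochberg adjustment over all of them. This scale understates the change of low genes. The fitting code was run on simulated data with known folds and independent normal noise. Those data were not quantile-normalized, so that run checks the code and does not bear on the calls. Called means an adjusted p under 0.05. The 15 alternatives covered the pseudocount, the filter, the variance prior, centring, a replicate block, repeated symbols and each left-out library.

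Members and lists were chosen with earlier results of these data known, so lists get counts and medians beside those of all genes and no test of their own. Every member could be named, and of the other lists JMJD6 and up to 3 called genes with the largest log2 fold change in each direction; PHF5A was added after its family's values were seen. Some genes that this rule picked are not reported here. Identifiers were matched to GENCODE v29 (GRCh38) without version for 19528 genes, 16270 of them with the same version. The notes name hg19, but most identifier versions are those of this GRCh38 annotation, so the build behind the values is unsettled. GENCODE v29 therefore gave only chromosomes, gene order, transcript types and coding sequences, and RefSeq (GRCh38.p14) gave promoters. Tables and plots were made with Python 3.11.15, pandas 2.3.3, NumPy 2.4.6, Matplotlib 3.10.9 and Biopython 1.88.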

Additional observations from a re-analysis of the deposited data

How the results depend on the processing

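Of the 11 called members, 9 kept their call under all 15 alternatives run. HNRNPF and HNRNPUL1 lost it with a variance prior without trend, under the replicate block and without several libraries. Members called numbered 5 to 8 higher (7 as reported) and 4 to 7 lower (4 as reported) when each library was left out in turn, with 7 lower without parental replicate 1. All genes called numbered 3029 to 3453 in those fits, against 3879 with every library. Directions turned round only when a library was left out, and none of these genes was called with all libraries; over the left-out libraries the log2 fold change ran from -0.17 to 0.23 for HNRNPD, -0.027 to 0.20 for HNRNPDL, -0.048 to 0.013 for HNRNPL, -0.46 to 0.28 for HNRNPR, -0.26 to 0.095 for SRSF1, -0.25 to 0.077 for SRSF10, -0.13 to 0.28 for SRSF3, -0.87 to 0.12 for U2AF1 and -0.52 to 0.16 for U2AF1L5. The cause was not tested.

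Calls in the other lists moved with left-out libraries: 1 to 4 for the U1 and core Sm proteins (4 as reported), 2 to 6 for the U2 and 3′ splice site factors (6), 3 to 5 for JMJD6 and the arginine methyltransferases (5), 5 to 7 for decay and exon junction genes (8) and 2 to 3 for the minor spliceosome (4). With no filter on low values the U1 and core Sm proteins had 2. Of 40 called genes that the naming rule picked from these lists, 24 kept the call under all alternatives run.

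Replicate numbers are shared between the groups, but same-numbered libraries did not deviate together (correlations of -0.065, -0.028 and -2.94e-04). The main fit therefore used no pairing. Small correlations cannot exclude that same-numbered libraries were handled together. With the number as a block, all genes called numbered 3159, 5 members were higher and 4 lower, and the calls were 2 for U1 and core Sm proteins, 3 for the U2 and 3′ splice site factors, 3 for JMJD6 and the methyltransferases and 2 for the minor spliceosome.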
